A study of Mus musculus with 10 samples.

Results

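The second of 2 cohorts of healthy mice in this study gave 6 RNA sequencing libraries of microglia, and the regional comparison described here was made on 4 of them. Members were the libraries outside the pilot cohort whose title and file label named the same brain region. They were midbrain (Mdb) replicates 1 and 3 and striatum (Str) replicates 1 and 3, 2 libraries a region and 4 of the 10 libraries of the series. The remaining libraries were the 4 of the pilot cohort, 2 a region, and 2 of the second cohort whose title and file label named different regions, which were left out of the tests below. All libraries came from untreated C57BL/6 mice aged 3 months under normal housing, and the region of dissection was the only difference between the groups in the labels. Brains were perfused with cold PBS, dissociated with papain, cleared on Percoll and purified with beads against CD11b, a protein that monocytes, neutrophils, NK cells and border macrophages carry as well as microglia, and polyadenylated RNA was sequenced. The labels do not tie libraries to individual animals, so p-values below measure the spread between these libraries, which may be partly technical.

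Microglia are the resident macrophages of the brain parenchyma. In the healthy brain they keep a characteristic set of surface receptors, among them the purinergic receptor P2ry12, and carry little MHC class II, the complex that presents extracellular peptides to CD4+ T cells. The midbrain houses the dopamine neurons of the substantia nigra and the striatum receives their axons. Macrophages of the meninges and vessel walls and several blood leukocytes are known to carry more MHC class II than parenchymal microglia do.

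The sequence upstream of 5 genes that passed an adjusted p of 0.05 in this cohort, taken from the class II, chemokine and interferon lists, is shown to give those programmes a concrete form. The sequences are RefSeq's on GRCm38.p6, each covering the 150 bases before the annotated start of transcription, on the strand of the gene and 5′ to 3′. Capitals mark a motif found in either orientation. Every gene shown holds its motif, so the sequences illustrate the motifs and are not a sample of the lists. In H2-Eb1 (chr17:34305717-34305866, plus strand) and H2-Aa (chr17:34287824-34287973, minus strand), which encode chains of the class II molecules I-E and I-A, the motif is ATTGG or its reverse complement CCAAT. These letters are the core of the Y box of class II promoters, but a match alone does not identify a Y box. In Cxcl1 (chr5:90891095-90891244, plus strand) and Cxcl2 (chr5:90903749-90903898, plus strand), which encode chemokines for neutrophils, it is GGGAA directly followed by TTTCC, a form of the site bound by NF-κB. In Oas3 (chr5:120777660-120777809, minus strand), which encodes an interferon-induced sensor of double-stranded RNA, it is GAAA, any 2 bases and GAAA again, the core of the interferon response element.
H2-Eb1: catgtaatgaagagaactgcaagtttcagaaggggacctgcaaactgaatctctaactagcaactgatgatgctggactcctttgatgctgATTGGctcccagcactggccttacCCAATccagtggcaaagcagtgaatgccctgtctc
H2-Aa: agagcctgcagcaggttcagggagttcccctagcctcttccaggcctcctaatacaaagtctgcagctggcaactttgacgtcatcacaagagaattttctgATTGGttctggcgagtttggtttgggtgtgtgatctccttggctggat
Cxcl1: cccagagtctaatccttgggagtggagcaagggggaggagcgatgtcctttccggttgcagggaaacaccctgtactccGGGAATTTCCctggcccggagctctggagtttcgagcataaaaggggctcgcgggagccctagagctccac
Cxcl2: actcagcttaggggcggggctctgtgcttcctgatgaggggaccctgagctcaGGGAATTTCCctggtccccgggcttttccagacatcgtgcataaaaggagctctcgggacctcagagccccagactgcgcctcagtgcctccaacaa
Oas3: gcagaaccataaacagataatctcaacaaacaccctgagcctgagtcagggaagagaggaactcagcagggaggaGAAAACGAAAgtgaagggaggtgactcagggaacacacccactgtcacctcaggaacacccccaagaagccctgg

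Each motif was searched on both strands in the 250 bases before the start of every RefSeq gene with a sequence, 32851 windows in all. ATTGG was present in 33.8% of windows, the NF-κB site in 0.0852% and the interferon response core in 2.98%. Of the 48 genes that passed an adjusted p of 0.05 in this cohort (below), 35 had a window. ATTGG was present in 15 of those 35 (42.9%), the interferon response core in 3 (8.57%; Ifi207, Oas3 and Tgfbi) and the NF-κB site in 2 (5.71%; Cxcl1 and Cxcl2). Both genes with the NF-κB site are among those displayed above, so its percentage rests on them alone. The interferon-induced genes Ifi27l2a, Oas2 and Irf7 passed the same threshold but were not among the matches, for want of a site or of a window. Enrichment of the motifs was not tested. The motifs do not overlap one another in the sequences shown. A match describes the letters of the window and not the binding of a factor.

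Depth differed widely within the cohort. The midbrain libraries held 5176234 (replicate 1) and 4473445 (replicate 3) counts assigned to genes, and the striatum libraries 2820369 (replicate 1) and 575709 (replicate 3), the last being 8.99 times shallower than the deepest. A count of 3, used here as the lower limit of measurement, corresponds to 0.608, 0.675, 1.05 and 5.05 CPM in that order, where CPM is the count relative to library size after scaling by trimmed means of M-values (TMM). Such limits cover counting error only. Below, values are always given for midbrain replicates 1 and 3 and then striatum replicates 1 and 3. Correlations of log2 CPM across the 13486 genes tested, which are not independent replicates, were 0.954 between the midbrain libraries, 0.918 between the striatum libraries and 0.870 to 0.946 across regions. Microglial markers were abundant in all 4 libraries. The markers Snap25, Syt1, Th and Slc6a3 of neurons did not reach the filter for testing, and Slc6a3, the dopamine transporter, had no count in any of the 4. Other neuronal genes did reach it: 6 of 14 on the neuron list, and 4 of 12 each for striatal projection and midbrain dopamine neurons. The neuron list summed to 46.4 and 38.3 CPM in midbrain and 52.7 and 21.9 CPM in striatum.

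Comparison of the regions gave many more genes higher in midbrain than in striatum. At an unadjusted p under 0.01 (limma on voom-transformed counts), 388 genes were higher in midbrain and 80 in striatum, 2.88% and 0.593% of the 13486 tested and 3.47% together. At an adjusted p under 0.05 (Benjamini-Hochberg over all genes tested), 48 genes passed (0.356%), all higher in midbrain. A gene is referred to as called where the unadjusted p was under 0.01, and fold changes are given as log2 of midbrain over striatum ± standard error. The median change was 2.31 among the 388 genes and −1.51 among the 80, and −0.00096 over all genes tested. With 2 libraries a region, an exact permutation test of a single gene cannot go below p = 0.333, so each call rests on the variance that limma shares across genes.

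The shallow striatum library limited what could be read for weakly expressed genes. Of the 388 genes higher in midbrain, 240 had more than 3 counts in all 4 libraries, 148 had 3 or fewer in striatum replicate 3, and 59 of these had 3 or fewer in both striatum libraries. For such genes the fold is given against the level of 3 counts per striatum library. That fold is not a confidence limit, and the true fold may be lower. Of the 80 genes higher in striatum, 76 had more than 3 counts in all 4 libraries. All 468 called genes had libraries that did not overlap between the regions, against 23.9% of all genes tested that did not overlap and were higher in midbrain and 18.1% in striatum. When striatum replicate 3 was left out, 48 of the 48 genes kept an unadjusted p under 0.01, but an adjusted p under 0.05 was kept by 3, namely Ccl7, H2-Aa and H2-Eb1. Without striatum replicate 1, 47 kept the unadjusted and 16 the adjusted threshold. Counting ignored strand and left out reads matching several genes. Reads in exons shared by overlapping genes, on either strand, are therefore missing from both, and the counts of such genes may be too low. Among the genes named below this applies to F13a1 (Gm30489), Hspa1a (Gm20481), Pim1 (Gm26885), Ciita (Dexi), Jun (Junos), Dnajb9 (Mir5627), Ifitm2 (Gm45717), Rps18 (Vps52), Spp1 (Gm42793), P2ry12 (Med12l), Cd52 (Crybg2), Gpr155 (Gm13703 and Gm13709), mt-Nd2 (mt-Tw), Cxcl10 (Art3), Cd9 (Gm26728), Cxcl16 (Zmynd15), H2-Oa (BC051537), Zfp36 (Gm44710), Ctsd (Gm49369), Pycard (Gm45205), Csf1r (Hmgxb3), Itgam (Gm49368), Junb (Prdx2), Stab1 (Nt5dc2), Ctsb (Fdft1), Cx3cr1 (Gm33858) and Il1a (Gm14023). Members of the gene lists that no fixed rule selected were chosen for mention after their values were seen. Omission of a library also moved the number called over all genes tested, which rose most without midbrain replicate 3. Counts for lists with a library left out are to be read beside that.

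**Figure D1:**
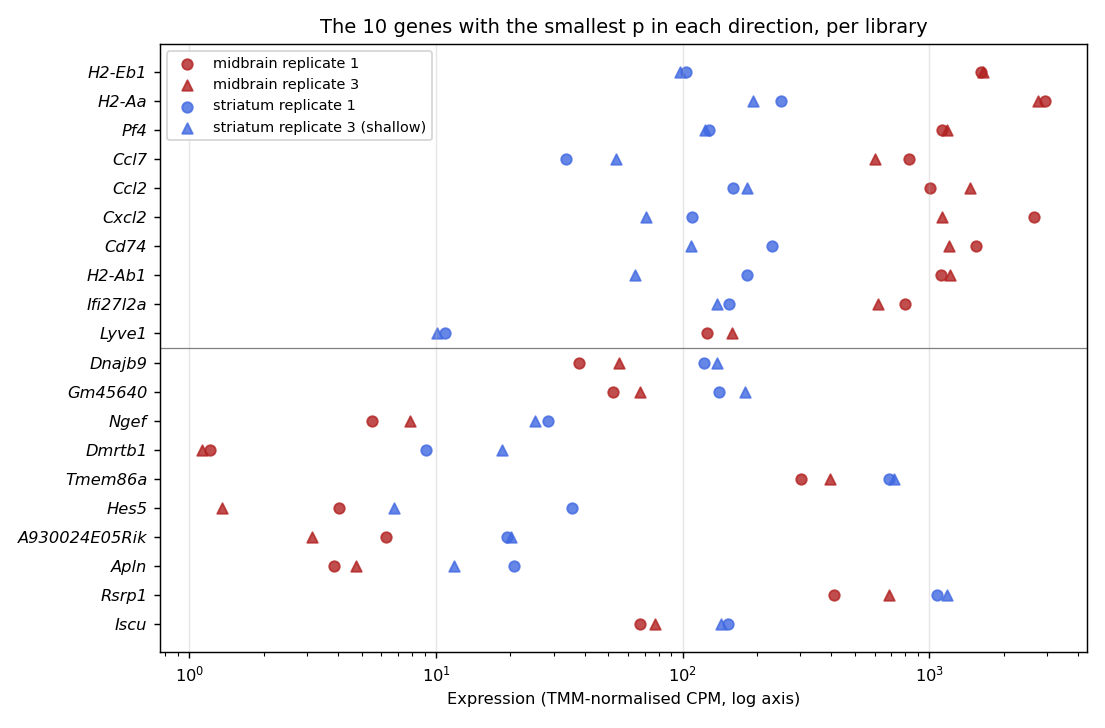
CPM (log axis) in each of the 4 libraries for the 10 genes with the smallest p in each direction. Red marks midbrain and blue striatum, circles replicate 1 and triangles replicate 3. The 2 libraries of a region lie close together for H2-Eb1, H2-Aa and Pf4, whereas Cxcl2 lies at 2652 and 1126 CPM in the midbrain libraries.

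The genes of classical MHC class II led the comparison. H2-Eb1, the beta chain of I-E, was at 1619 and 1647 CPM in midbrain and 103 and 97.6 CPM in striatum. H2-Aa, the alpha chain of I-A, was at 2950.0 and 2768 CPM in midbrain and 249 and 192 CPM in striatum. The 2 libraries of each region lay close together and the regions were far apart for both, with changes of 4.01 ± 0.25 (adjusted p = 6.47e-05) and 3.67 ± 0.24 (adjusted p = 6.47e-05). H2-Ab1, the beta chain of I-A, was at 1117 and 1207 CPM in midbrain and 182 and 64.0 CPM in striatum, a change of 3.19 ± 0.37 (adjusted p = 0.00453). Cd74, the invariant chain that escorts class II molecules, was at 1546 and 1204 CPM in midbrain and 229.5 and 108 CPM in striatum, and changed by 2.98 ± 0.33 (adjusted p = 0.00318). Reads in the sequence that Cd74 shares with the overlapping Mir5107 were not counted. In both H2-Ab1 and Cd74 striatum replicate 3 was the lowest library, and no midbrain library came near either striatum library. Ciita, the transactivator that switches on class II transcription, was at 51.3 and 42.8 CPM in midbrain and 8.08 and 6.73 CPM in striatum and was called at an adjusted p of 0.0583.

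The other class II genes did not pass. H2-DMa and H2-DMb1, which form the chaperone that loads peptides, changed by 0.36 ± 0.23 (adjusted p = 0.615) and 0.48 ± 0.30 (adjusted p = 0.614). H2-Oa, a chain of the regulator that restrains H2-DM, was at 32.0 and 24.3 CPM in midbrain and 41.5 and 53.9 CPM in striatum, higher in both striatum libraries without passing the test (adjusted p = 0.512). H2-Ob was within the spread of the libraries at 0.03, H2-DMb2 was near the counting limit, and H2-Eb2 was too low to test. In all, 5 of 10 class II genes tested were called higher in midbrain and none in striatum, with a median change of 2.07 and summed CPM of 8175 and 7742 CPM in midbrain and 1496 and 1143 CPM in striatum. Leaving out striatum replicate 3 gave 5 of 10 again. Markers of border macrophages, which also carry class II, summed to 3231 and 3306 CPM in midbrain and 733 and 678 CPM in striatum in the same libraries, and their part in the class II difference was not tested. Omission of any single library moved the change of H2-Eb1 between 3.98 and 4.06 and that of H2-Aa between 3.52 and 3.88.

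Genes of class I presentation, which display intracellular peptides to CD8+ T cells, differed little. Of 19 tested, 1 was called, H2-Q7, a nonclassical class I gene at 32.2 and 25.7 against 10.9 and 10.1 CPM, and it belongs to a family of near-identical copies whose reads may be split. H2-D1 changed by 0.69 ± 0.22 (adjusted p = 0.289) and H2-K1 by 0.61 ± 0.25 (adjusted p = 0.411), with midbrain libraries above both striatum libraries in each. B2m, the light chain shared by all class I molecules, was at 8144 and 5981 CPM in midbrain and 4477 and 8324 CPM in striatum, so that striatum replicate 3 was the highest library and the regions overlapped. The median change of the 19 genes was 0.23. More of them were called without midbrain replicate 3, where calls over all genes tested rose as well, and fewer without striatum replicate 3.

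Among 10 co-stimulatory and checkpoint ligands, 3 were called. Cd83, a stabiliser of class II molecules at the cell surface, was higher in midbrain at 745 and 381 against 209.5 and 323 CPM, and Tnfsf9, the ligand of 4-1BB, at 43.0 and 31.7 against 10.5 and 23.6 CPM. Havcr2 (Tim-3), an inhibitory receptor of microglia, was higher in striatum at 102 and 107 against 171 and 241 CPM. Cd86 was at 199.5 and 144 against 132 and 205 CPM with overlapping regions (adjusted p = 0.926), and Cd80 changed by 0.19 ± 0.67 (adjusted p = 0.948). Cd40, the receptor for T cell help, was at 32.6 and 11.9 CPM in midbrain and 3.52 and 1.68 CPM in striatum, which is 1 count in striatum replicate 3, and its change of 2.62 ± 0.86 was not called (adjusted p = 0.299). For Cd274 (PD-L1) the change was 1.22 ± 0.48 (adjusted p = 0.400). Without striatum replicate 3 none of the 10 was called, whereas without midbrain replicate 3 there were 4 in midbrain and 2 in striatum.

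**Figure D2:**
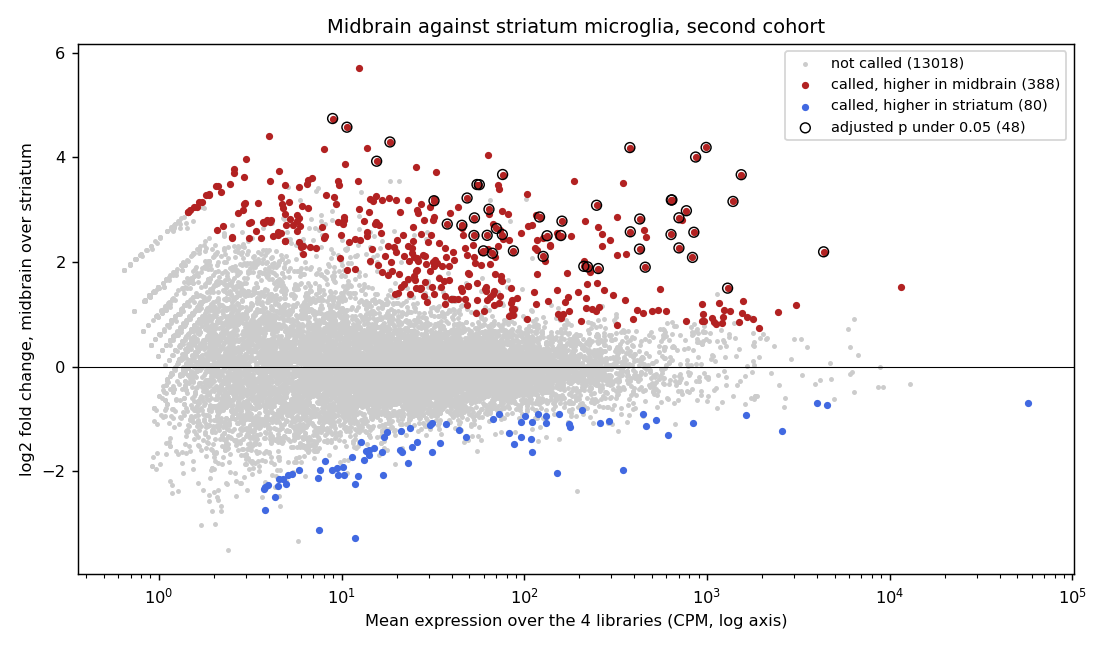
Log2 fold change of midbrain over striatum (vertical axis) against mean CPM of the 4 libraries (horizontal log axis) for the 13486 genes tested, with called genes in red (midbrain) or blue (striatum) and black rings around the 48 at an adjusted p under 0.05. Called genes higher in midbrain (388) outnumber those higher in striatum (80), and all 48 ringed genes lie above 0.

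Of the chemokine ligands, 5 passed the adjusted threshold. Ccl7, which draws monocytes, was at 827 and 599.7 CPM in midbrain and 33.7 and 53.9 CPM in striatum, a change of 4.19 ± 0.34 (adjusted p = 0.000265). Ccl2, the main ligand of the monocyte receptor Ccr2, was at 1009.8 and 1458 CPM in midbrain and 160.3 and 182 CPM in striatum and changed by 2.85 ± 0.28 (adjusted p = 0.00136). Pf4 (Cxcl4), made by platelets and also by border macrophages, was at 1124 and 1178 CPM in midbrain and 128 and 123 CPM in striatum, with a change of 3.19 ± 0.25 (adjusted p = 0.000251). The regions were far apart and the libraries within a region similar in these 3 genes. Cxcl2 was at 2652 and 1126 CPM in midbrain and 109 and 70.7 CPM in striatum, a change of 4.19 ± 0.43 (adjusted p = 0.00202), and Cxcl1 at 101 and 105 CPM in midbrain and 7.73 and 13.5 CPM in striatum, a change of 3.48 ± 0.44 (adjusted p = 0.00728). Cxcl2 varied more between the midbrain libraries than Cxcl1 did, and their promoters are those shown above with the NF-κB site.

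A further 7 chemokine ligands were called without passing the adjusted threshold. Ccl3 and Ccl4, which microglia themselves release, were at 2674 and 1762 against 817 and 1029 CPM and at 2018 and 1598 against 821 and 914 CPM, and differed by about the same amount, 1.26 and 1.06. Ccl12 was at 1247 and 340.2 CPM in midbrain and 92.4 and 139.7 CPM in striatum, Ccl9 at 521 and 166 CPM in midbrain and 103 and 89.2 CPM in striatum and Ccl24, an eosinophil chemokine, at 618 and 94.3 CPM in midbrain and 20.4 and 20.2 CPM in striatum. In these 3 genes midbrain replicate 1 stood well above replicate 3, although replicate 3 was still above striatum. Ccl5, typical of T and NK cells, was at 369.8 and 251 CPM in midbrain and 86.5 and 13.5 CPM in striatum, and Ccl8 was also called. Of 22 ligands tested, 12 were higher in midbrain and none in striatum, with a median change of 2.18 and summed CPM of 14307 and 9239.8 CPM in midbrain and 2778 and 3045 CPM in striatum. Cxcl10, an interferon-induced ligand, varied several fold between the midbrain libraries (296 and 63.2 against 27.1 and 52.2 CPM) and did not pass (adjusted p = 0.313), nor did Cxcl16 (adjusted p = 0.482). With striatum replicate 3 left out, 10 of 22 were called higher in midbrain and 1 in striatum, and without striatum replicate 1 8 were called.

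Of 13 chemokine receptors tested, 5 were called in midbrain and none passed the adjusted threshold. Ccr1, Ccr2 and Cxcr2, the receptors of monocytes and neutrophils, were called at 107 and 53.1 against 13 and 8.42 CPM, at 175 and 57.2 against 14.1 and 10.1 CPM and at 54.3 and 50.6 against 16.9 and 6.73 CPM. Ccrl2, an atypical chemokine receptor, was at 514 and 248 against 122 and 113 CPM. Ccr7, the lymph node homing receptor, had no count in either striatum library, and midbrain was 1.97-fold above the level of 3 counts there. Cx3cr1, the fractalkine receptor that marks microglia, was at 2568 and 1701 CPM in midbrain and 1920.3 and 2809.5 CPM in striatum, with overlapping regions (adjusted p = 0.903). Without striatum replicate 1, 3 of the 13 were called.

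Some cytokine genes were higher in midbrain. Il1b was at 2182 and 754 CPM in midbrain and 187 and 268 CPM in striatum, a change of 2.57 ± 0.45 (adjusted p = 0.0437), and overlaps the antisense gene Il1bos. Il10, an anti-inflammatory cytokine, was at 28.6 and 29.3 CPM in midbrain and 1.05 and 3.37 CPM in striatum (adjusted p = 0.0437), with 3 counts or fewer in each striatum library, and was at least 9.48-fold higher in midbrain. Tnf was at 605 and 289 CPM in midbrain and 154 and 173 CPM in striatum, a change of 1.38 ± 0.36 (adjusted p = 0.172). The midbrain libraries lay above both striatum libraries in all 3 genes, and for Il1b and Tnf midbrain replicate 1 stood above replicate 3. Il6 was at 11.6 and 5.85 CPM in midbrain and 5.27 and 20.2 CPM in striatum with the highest value in striatum replicate 3 (adjusted p = 0.966), Il1a changed by −0.00 and Tgfb1 by 0.10, none of them called.

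In the interleukin-1 list, Nlrp3, the inflammasome sensor, was called at 237 and 138 against 67.1 and 97.6 CPM, as was the decoy receptor Il1r2 at 85.2 and 38.3 against 4.22 and 3.37 CPM, giving 3 of 13. Pycard and Gsdmd, the adaptor and the pore protein of the inflammasome, changed by −0.30 and −0.45 and were not called. Of 19 genes of NF-κB feedback and cytokines, 5 were called, among them the inhibitors Nfkbia (2217 and 1662 against 1156 and 961 CPM) and Nfkbiz (315 and 392 against 153 and 168 CPM) and the prostaglandin enzyme Ptgs2. Omission of a library changed this count to 2 (striatum replicate 1), 3 (striatum replicate 3) or 8 (midbrain replicate 3). The transcription factor genes Nfkb1 and Rela, in contrast, changed by −0.25 and 0.27 (adjusted p = 0.765 and 0.782). Of 18 Toll-like receptors and adaptors, none was called with all 4 libraries. Tlr2 and Cd14 came nearest at 0.89 ± 0.30 and 0.71 ± 0.24, and Tlr4, the lipopolysaccharide receptor, was at 22.3 and 31.3 CPM in midbrain and 30.9 and 82.5 CPM in striatum (adjusted p = 0.632), highest in striatum replicate 3.

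Interferon-induced genes were higher in midbrain in part. Ifi27l2a was at 797 and 620.2 CPM in midbrain and 154 and 138 CPM in striatum, a change of 2.25 ± 0.26 (adjusted p = 0.00489). Oas2 was at 69.8 and 63.2 CPM in midbrain and 10.2 and 8.42 CPM in striatum (adjusted p = 0.0307), and Oas3 at 17.8 and 17.6 CPM in midbrain and 0.352 and 0 CPM in striatum (adjusted p = 0.0297), at least 5.80-fold higher in midbrain since striatum held 1 count in all. Irf7, the amplifier of the interferon response, was at 110.3 and 90.9 CPM in midbrain and 24.6 and 13.5 CPM in striatum (adjusted p = 0.0459) and overlaps Phrf1. Of 41 tested, 13 were called in midbrain and none in striatum, and the median change was 0.91. The 13 included Ifitm1, Ifitm2, Ifitm3 and Ifitm6, antiviral membrane proteins, and the ubiquitin-like Isg15, but Ifit2 and Ifit3, which are classical targets of type I interferon, changed by −0.11 and 0.62 without passing. Ifi27, at 258 and 276 against 264 and 237 CPM, did not separate the regions.

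Immediate early genes, which are switched on within minutes of cell stimulation and during enzymatic dissociation, were higher in midbrain for 11 of 21, with a median change of 1.04. The Krüppel-like factors Klf2 and Klf4 were at 1383 and 957 against 263 and 207 CPM and at 923 and 388 against 91.4 and 119.5 CPM (adjusted p = 0.00554 and 0.0307). Fosb was at 1604 and 585 against 148 and 205 CPM, Klf6 at 1822 and 904 against 294 and 313 CPM, Dusp1 at 1641 and 2185 against 609.9 and 751 CPM and the heat shock gene Hspa1a at 614 and 846 against 214 and 163 CPM, all passing the adjusted threshold. Fos and Jun, subunits of AP-1, were called at 1.04 ± 0.21 and 1.18 ± 0.22. Junb, Zfp36, Ier2, Ier5 and Btg2 belong to the same response and were not called, with changes between −0.16 and 0.40. Summed CPM of the list were 29572 and 26310.1 CPM in midbrain and 14335 and 14269.8 CPM in striatum. The part of handling during dissociation in the cytokine and chemokine differences was not tested. The number called was 6 of 21 without striatum replicate 1 and 8 without striatum replicate 3.

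Of 18 genes of homeostatic microglia, 6 were called, all higher in striatum and none at the adjusted threshold. P2ry12, the ADP receptor of microglial processes, was at 1211 and 1700.1 CPM in midbrain and 2448 and 4936 CPM in striatum, a change of −1.24 ± 0.32 (adjusted p = 0.163). Siglech, a sialic acid-binding lectin, was at 866 and 1405 CPM in midbrain and 1903 and 2379 CPM in striatum, a change of −0.94 ± 0.27 (adjusted p = 0.225). Both were lower in each midbrain library than in each striatum library. Gpr34, a lysophosphatidylserine receptor, was at 24.1 and 128 CPM in midbrain and 219 and 234 CPM in striatum, where midbrain replicate 1 stood far below the other 3 libraries. Cst3, the protease inhibitor cystatin C and the most abundant transcript in each of the 4 libraries, was at 43129 and 44093 CPM in midbrain and 82840.4 and 59776 CPM in striatum. P2ry13 and Selplg were also called in striatum.

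All 18 homeostatic genes had a negative change, while 49.9% of all genes tested had a positive one, and the median was −0.78. Tmem119 changed by −0.56 ± 0.23 (adjusted p = 0.434), Sall1, the transcription factor of microglial identity, by −0.82 ± 0.35, and Csf1r, the receptor microglia depend on for survival, by −0.24 ± 0.21. The calls depended on single libraries. Omission also moved the number called over all genes tested, which rose most without midbrain replicate 3. Without striatum replicate 3 none of the 18 was called, 17 of the 18 had a negative change, the median was −0.70, and P2ry12 changed by −0.77 (unadjusted p = 0.0725 in limma). The number called was 2 without striatum replicate 1, 3 without midbrain replicate 1 and 15 without midbrain replicate 3. Within midbrain, 17 of the 18 were higher in replicate 3 than in replicate 1. Of 12 genes shared by macrophages or used for sorting, 1 was called. Itgam, which encodes the CD11b used for purification, was at 547 and 710.4 CPM in midbrain and 673 and 880.4 CPM in striatum (adjusted p = 0.739), and Ptprc (CD45) at 309 and 336 CPM in midbrain and 182 and 271 CPM in striatum (adjusted p = 0.477). Lyz2, lysozyme of monocytes, neutrophils and activated macrophages, was the gene called, at 9248 and 5138 against 1710.5 and 1296 CPM (adjusted p = 0.0118).

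Genes of disease-associated microglia, a state described around plaques and dying neurons, were higher in midbrain in part. Apoe, the lipid carrier, was at 15530.2 and 18339 CPM in midbrain and 8259 and 3985 CPM in striatum, a change of 1.51 ± 0.29 (adjusted p = 0.0613), and without striatum replicate 3 its change was 1.03 and it was no longer called (unadjusted p = 0.0200 in limma). The receptors Clec7a and Axl were at 45.4 and 63.2 against 14.4 and 10.1 CPM and at 156 and 72.5 against 25.7 and 21.9 CPM, Spp1 (osteopontin) at 68.7 and 38.5 against 13 and 10.1 CPM and Lgals3 (galectin-3) at 1012 and 229 against 125 and 80.8 CPM. Igf1 and Cd52 completed the 7 of 20 called. Trem2 and Tyrobp, the receptor and adaptor that drive this state, changed by −0.57 ± 0.21 and −0.15 ± 0.21 and were not called, nor were Ctsd, Ctsb and Cd9. Without striatum replicate 1 or without striatum replicate 3, 2 of 20 were called, and without midbrain replicate 3 10 in midbrain and 2 in striatum. None of 25 lysosomal genes, 7 Fc receptors, 14 lineage transcription factors or 15 genes of TGF-β signalling was called, and of 15 complement genes only Cfp (properdin, 97.1 and 63.2 against 18.6 and 10.1 CPM) and C4b (58.4 and 126 against 30.6 and 28.6 CPM), whereas C1qa, C1qb and C1qc, the abundant subunits of C1q, changed by −0.39, −0.01 and −0.49 without being called.

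**Figure D3:**
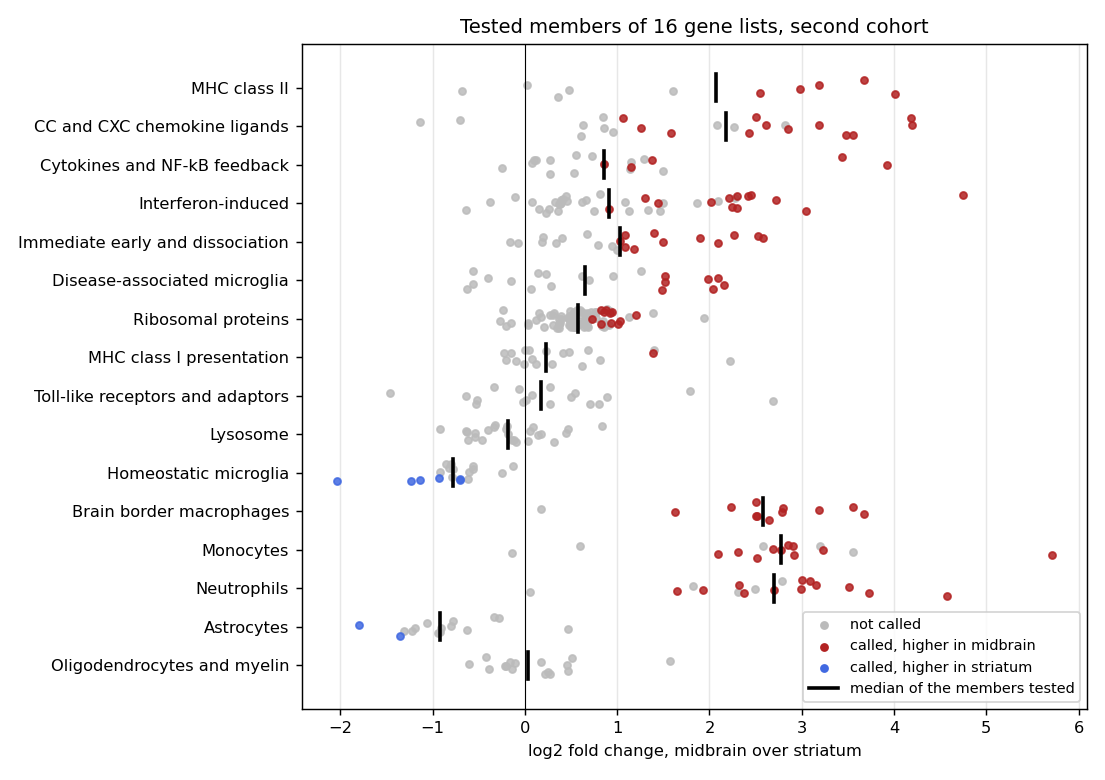
Log2 fold change of midbrain over striatum for the members of each gene list, one point per tested gene, with called genes in red (midbrain) or blue (striatum) and a black bar at the median of each of 16 lists. Border macrophage, neutrophil and monocyte lists have the highest medians of those drawn, from 2.58 to 2.78, and the homeostatic list lies below 0 throughout.

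Markers of other CD11b+ cells differed between the regions beside these results, and their part in them was not tested. In bulk RNA, more cells of a type and more RNA per cell cannot be told apart. Of 12 markers of border macrophages, 11 were called in midbrain, 7 of them at the adjusted threshold, with a median change of 2.58. Lyve1, the hyaluronan receptor of perivascular macrophages, was at 126 and 158 CPM in midbrain and 10.9 and 10.1 CPM in striatum, a change of 3.67 ± 0.43 (adjusted p = 0.00489). F13a1 was at 342 and 224 CPM in midbrain and 41.8 and 35.4 CPM in striatum (adjusted p = 0.00728), and the haemoglobin scavenger Cd163 at 109 and 137 CPM in midbrain and 20.7 and 15.2 CPM in striatum (adjusted p = 0.0187). As in every called gene, the 2 regions did not overlap in any of the 11. Mrc1, the mannose receptor, was at 128 and 260.4 against 35.2 and 48.8 CPM, and Stab1 alone was not called at 0.18. The list summed to 3231 and 3306 CPM in midbrain and 733 and 678 CPM in striatum, and Folr2, a further marker, had 1 count in midbrain replicate 1 and none elsewhere. Of the 12, 6 were called without striatum replicate 1 and 8 without striatum replicate 3.

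Monocyte and neutrophil genes were higher in midbrain too. Of 15 monocyte markers, 10 were called, none at the adjusted threshold, with a median of 2.78. Ly6c2 was at 291 and 85.7 CPM in midbrain and 27.4 and 16.8 CPM in striatum, Plac8 at 1062 and 116 CPM in midbrain and 45.0 and 58.9 CPM in striatum and Chil3 at 597 and 179 CPM in midbrain and 61.2 and 23.6 CPM in striatum. Midbrain replicate 1 was the highest library in each, and the sum of the list was 3230.2 and 854 CPM in midbrain and 328 and 178 CPM in striatum. Fpr1, the receptor for bacterial formyl peptides, had no count in striatum, and midbrain was 8.19-fold above the level of 3 counts per striatum library. A fit without striatum replicate 3 called 3 of the 15.

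Of 17 neutrophil genes, 12 were called, 5 at the adjusted threshold, with a median of 2.70. S100a9, a subunit of calprotectin, was at 3739.6 and 1320.4 CPM in midbrain and 297 and 194 CPM in striatum, a change of 3.16 ± 0.45 (adjusted p = 0.0177). Its partner S100a8 was at 1071 and 237 CPM in midbrain and 43.9 and 43.8 CPM in striatum, and Retnlg at 644 and 258 CPM in midbrain and 50.3 and 42.1 CPM in striatum. Each was higher in midbrain replicate 1 than in replicate 3. S100a6 and S100a10, members of the same family found in many cell types, were called at 1122 and 411 against 112 and 69.0 CPM and at 356 and 83.3 against 44.3 and 37.0 CPM. The granule genes Ngp and Camp went the opposite way within midbrain, at 118 and 765 CPM in midbrain and 41.8 and 131 CPM in striatum and at 66.5 and 487 CPM in midbrain and 22.8 and 74.1 CPM in striatum, with the highest library in midbrain replicate 3, and were not called (adjusted p = 0.326 and 0.342). Ly6g, the surface marker of neutrophils, was at 6.69 and 12.6 against 2.46 and 1.68 CPM. The list summed to 6926 and 4574 CPM in midbrain and 1023 and 1082 CPM in striatum. Elane and Mpo, genes of neutrophil precursors, did not pass the filter on low counts. Elane had 3 and 35 counts in midbrain and 3 and 0 in striatum. Mpo had 5 and 37 counts in midbrain and 5 and 0 in striatum, so both were highest in midbrain replicate 3. Without striatum replicate 3, 10 of 17 were called.

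Markers of T and NK cells contributed few counts. Of 14 T and NK cell genes, 6 were called in midbrain, among them the granzymes Gzma (182 and 74.5 against 30.9 and 0 CPM) and Gzmb (38.1 and 39.2 against 11.2 and 5.05 CPM), and the list summed to 382 and 219 CPM in midbrain and 91.4 and 33.7 CPM in striatum. Without striatum replicate 3, 2 of the 14 were called, and without midbrain replicate 1 3 of 7 in midbrain and 1 in striatum. Cd3e, the core of the T cell receptor complex, had 1 count in midbrain replicate 1 and none elsewhere, and Cd8a had 6 counts in midbrain replicate 1, 1 in midbrain replicate 3 and none in striatum. None of 6 B cell genes was called with all 4 libraries, and their list summed to 741 and 696 CPM in midbrain and 801 and 758 CPM in striatum. Of 11 dendritic cell genes 4 were called, Ccr7, Cd209a, Klri2 and Btla, while Flt3, Xcr1 and Zbtb46 were not, and Clec9a was too low to test. The sum of this list did not separate the regions, at 426 and 543 CPM in midbrain and 489 and 561 CPM in striatum, and the number called was 0 without midbrain replicate 1, 1 without midbrain replicate 3 (6 genes tested in both) and 2 without striatum replicate 1. Hdc, the histamine-forming enzyme of basophils and mast cells, was at 115 and 107 CPM in midbrain and 26.7 and 18.5 CPM in striatum (adjusted p = 0.0317), but 6 of the 8 markers of those cells were too low to test. Haemoglobin genes, which report blood left in the vessels, were higher in midbrain for 4 of 5 markers of red blood cells, for instance Hbb-bs at 1011 and 1537 against 328 and 62.3 CPM.

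**Figure D4:**
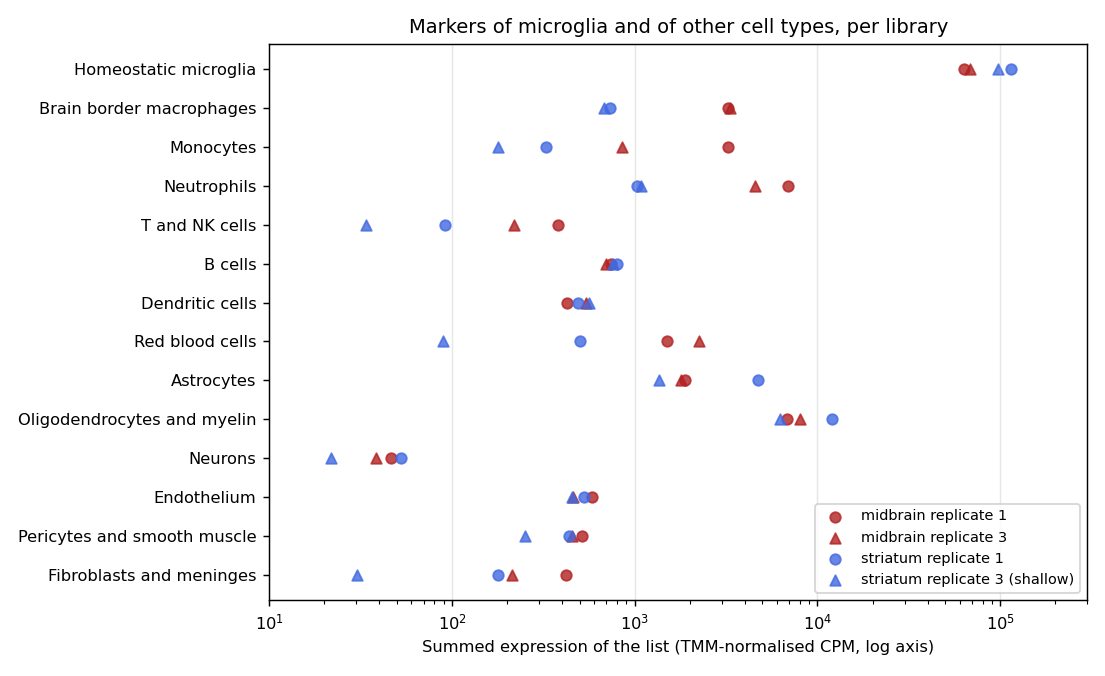
Summed CPM of marker lists in each of the 4 libraries on a log axis, with midbrain in red and striatum in blue. Border macrophage, monocyte and neutrophil markers lie higher in both midbrain libraries, while astrocyte and oligodendrocyte markers are highest in striatum replicate 1.

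Markers of glia that the beads should remove did not follow the midbrain. Of 15 astrocyte genes, 2 were called, both in striatum. Slc1a3 (GLAST), a glutamate transporter, was at 40.3 and 75.2 CPM in midbrain and 159 and 111 CPM in striatum, and the proteoglycan gene Cspg5 at 7.91 and 5.18 CPM in midbrain and 26.4 and 13.5 CPM in striatum. The list summed to 1886 and 1796 CPM in midbrain and 4713 and 1362 CPM in striatum, so that striatum replicate 1 stood apart and replicate 3 was the lowest of the 4. When striatum replicate 3 was left out, 9 of 15 were called in striatum, and 4 when midbrain replicate 1 was. Without striatum replicate 1 none was called and the median change was 0.15 in place of −0.92. None of 16 oligodendrocyte and myelin genes was called, and their sum, 6829 and 7975 CPM in midbrain and 12050.2 and 6254 CPM in striatum, was again highest in striatum replicate 1. No gene of the endothelial, pericyte, ependymal or neuronal lists was called with all 4 libraries. Of 9 fibroblast and meningeal genes 2 were called in midbrain, Mgp (271 and 137 against 51.0 and 11.8 CPM) and Col1a1.

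Of the 48 genes at the adjusted threshold, 35 were on one of the 40 lists examined and 13 on a list of another leukocyte or of border macrophages. For the 388 called genes these numbers were 125 and 44. The share of all genes tested that were on these lists was not counted. Since the lists were chosen with earlier results of these data known, such membership is partly built in. Some of the genes on none of the lists were chosen for mention after their values were seen. Anxa1, the anti-inflammatory annexin, was at 289 and 147 CPM in midbrain and 35.5 and 13.5 CPM in striatum (adjusted p = 0.0437). Pla2g2d, a secreted phospholipase, was at 54.7 and 57.2 CPM in midbrain and 4.57 and 11.8 CPM in striatum (adjusted p = 0.0307), and the cell cycle inhibitor Cdkn1a at 492 and 320.0 CPM in midbrain and 132 and 72.4 CPM in striatum (adjusted p = 0.0488). The kinase Pim1 (167 and 95.6 against 23.6 and 16.8 CPM) and Lgals1, galectin-1 (294 and 170.1 against 50.6 and 18.5 CPM), passed as well. As in every called gene, the regions did not overlap in these 5, and midbrain replicate 1 was above replicate 3 in all but Pla2g2d.

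The genes higher in striatum had smaller changes, with a median of −1.51 and none at the adjusted threshold. Of the 80, 35 had a mean under 20 CPM over the 4 libraries, 27 overlapped another gene and 11 were unnamed gene models. Dnajb9, a chaperone of the endoplasmic reticulum, had the smallest p, at 38.1 and 55.1 CPM in midbrain and 122 and 138 CPM in striatum, a change of −1.48 ± 0.30 (adjusted p = 0.0729). Tmem86a, a lysoplasmalogenase, was at 302 and 397 CPM in midbrain and 685 and 717 CPM in striatum, and the iron-sulfur scaffold Iscu at 67.1 and 77.2 CPM in midbrain and 153 and 143 CPM in striatum. The libraries within a region were close in these 3 genes. Rsrp1 was at 410.2 and 684 against 1073 and 1183 CPM, and the unnamed model Gm45640 at 52.3 and 67.1 against 140.3 and 178 CPM. The largest changes were those of Hes5, a target of Notch signalling, at 4.06 and 1.35 CPM in midbrain and 35.5 and 6.73 CPM in striatum, and of Dmrtb1, at 1.22 and 1.13 CPM in midbrain and 9.14 and 18.5 CPM in striatum. Striatum replicates differed several fold in Hes5, which overlaps Gm20421. Ngef (overlapping Neu2), Apln and Fjx1 were also among the leading genes, at 5.47 and 7.88 against 28.5 and 25.3 CPM, at 3.85 and 4.73 against 20.7 and 11.8 CPM and at 3.04 and 6.75 against 25.7 and 11.8 CPM.

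Genes of protein synthesis and respiration showed small or uneven differences. Their calls with a library left out stand beside those over all genes tested, which rose most without midbrain replicate 3. Of 84 ribosomal protein genes tested, 80 had a positive change and 11 were called in midbrain, with a median of 0.58. Rps18 was at 2582 and 2087 against 1217 and 1246 CPM and Rpl37 at 2619.7 and 1583 against 1083 and 909 CPM. Without striatum replicate 3 none of the 84 was called, 1 without striatum replicate 1 and 52 without midbrain replicate 3. Of 7 genes of the mitochondrial genome that could be tested, 2 were called in striatum, mt-Cytb at 239 and 505 against 1006 and 710.4 CPM and mt-Nd2 at 28.2 and 97.2 against 209 and 104 CPM. Midbrain replicate 1 had the lowest value in both, and without either striatum replicate no gene of this list was called, against 6 in striatum without midbrain replicate 3. None of 82 nuclear genes of the respiratory chain was called.

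The spread within each region sets the scale for these values. Between the midbrain libraries, 1398 genes differed more than 2-fold (log2 of CPM plus 1), and between the striatum libraries 3283 did. The second number includes more counting error, since striatum replicate 3 was shallow, so the 2 numbers do not compare the spread of the regions. The difference of midbrain replicate 1 minus replicate 3 had a median of 1.59 over the monocyte list, with all 15 genes higher in replicate 1, of 1.45 over the S100 list, 0.24 over the class II list and −0.46 over the homeostatic list, against −0.00 over all genes. In striatum, replicate 1 minus replicate 3 had a median of 1.59 over the astrocyte list, 1.02 over the oligodendrocyte list and 2.38 over the red blood cell list, against 0.10 over all genes. Thus the class II genes were near even within midbrain, and the monocyte and S100 genes were not. Medians of the border macrophage and neutrophil lists within midbrain were also small, at −0.41 and 0.18. Of their genes, however, 4 of 12 and 10 of 17 differed more than 2-fold there, against 0 of 10 for class II. Between the striatum libraries, 3 of the 10 class II genes differed more than 2-fold.

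The pilot cohort, 4 libraries analysed separately with no sample in common, is set beside these values. There 313 genes were called in midbrain and 82 in striatum, 2.09% and 0.548% of 14972 and 2.64% together. Of the 388 genes higher in midbrain in the second cohort, 377 were tested in the pilot, 354 had a positive change there and 156 were called, against 6541 of 13210 genes with a positive change among all genes tested in both. The median change of the called genes was 2.31 in the second cohort and 0.89 in the pilot. H2-Eb1 changed by 4.01 and 1.91, Ccl7 by 4.19 and 1.00, and S100a9 by 3.16 and 2.96 in the second and pilot cohorts. Among the 48 genes, 47 had a positive change in the pilot and 32 were called. Hspa1a was the exception at −0.24.

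Of the 80 genes higher in striatum, 53 had a negative change in the pilot and 7 were called there, including Siglech, Gpr155 and Dmrtb1. For the list medians, class II stood at 2.07 and 1.36, chemokine ligands at 2.18 and 0.47, immediate early genes at 1.04 and 0.13, homeostatic genes at −0.78 and −0.45, and astrocyte genes at −0.92 and 0.78 in the second and pilot cohorts. Border macrophages stood at 2.58 and 1.17, monocytes at 2.78 and 1.18, and neutrophils at 2.70 and 1.27. In the pilot, 11 of 12, 8 of 15 and 12 of 17 genes of these 3 lists were called in midbrain. The pilot called 4 of 10 class II genes, and 2.09% of all genes tested, in midbrain. The difference between the cohorts was tested as an interaction of region and cohort over the 8 libraries with limma. No gene of 14053 passed an adjusted p of 0.05, by limma or by the quasi-likelihood test of edgeR, and 771 (5.49%) had an unadjusted p under 0.05 in limma. Of the 48 genes, 47 had a larger change in the second cohort, where they had been selected, and 38 had an unadjusted p under 0.05 for the difference.

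**Figure D5:**
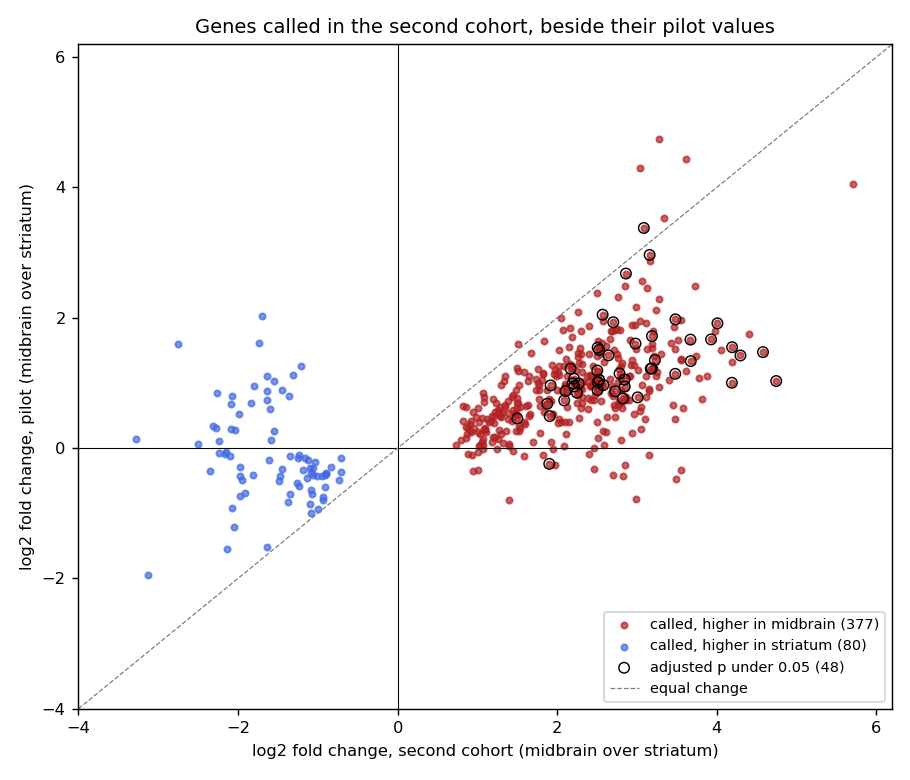
Log2 fold change of midbrain over striatum in the second cohort (horizontal axis) and in the pilot cohort (vertical axis) for the genes called in the second cohort, with black rings around the 48 at an adjusted p under 0.05 and a dashed line of equal change. Most genes higher in midbrain (354 of 377) are positive in the pilot, with a median of 0.89 among the called genes, while those higher in striatum lie on both sides of 0.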

How the data were processed

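For each library the authors deposited raw read counts per gene, with no normalization. Reads of the MARS-seq protocol, a method for small amounts of RNA that captures transcript 3′ ends, had been aligned to GRCm38 with STAR 2.5.3a and counted over exons with featureCounts 1.6.0 on Gencode M17, ignoring strand and reads matching several genes. Use of molecular identifiers is not given in the sources used here, so counts were treated as reads. Of 53715 gene identifiers, 53620 received a symbol, 51464 through the identifier with its version. A gene was dropped when over 50% of the libraries in the fit held fewer than 6 counts of it. The remaining counts were scaled by TMM (edgeR 4.0.16), transformed with voom and tested two-sided with limma 3.58.1 in R 4.3.3, the second cohort (2 against 2) and the pilot (2 against 2) each alone, and their difference over all 8 libraries. Tests on simulated data of the second cohort (13486 genes) recovered 32 of 100 genes changed 2-fold and 98 of 100 changed 4-fold at an unadjusted p under 0.01, and called 1.14% of the other genes. The changed genes were drawn only from those with higher mean counts, so recovery of weakly expressed genes was not measured.

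Lists of genes were described by counts and medians, with no set test. Genes were named by a fixed rule: the 10 with the smallest p and the 10 with the largest change in each direction (the latter with more than 3 counts in every library), the 4 most abundant tested members of each list described, and the genes of the proteins the study measured. The members and lists were chosen with earlier results of these data known. DESeq2 1.42.0, the quasi-likelihood test of edgeR, other filters and scalings, thinning, quality weights, a block on replicate numbers, the 2 libraries of unclear region and omission of each library were the alternatives. Promoter sequences came from RefSeq tables. Replicates were distinct libraries (chi-square per degree of freedom 26.1 in midbrain and 6.19 in striatum).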

Additional observations from a re-analysis of the deposited data

Results flagged for a closer look

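Of the 468 called genes, 6 had CPM values that separated the regions without overlap in opposite directions in the 2 cohorts. Every called gene separated the regions in the second cohort, and the share over all genes tested was not counted. On the log2 scale, midbrain over striatum, the change was 2.82 in the second cohort and −0.42 in the pilot for Gm7461, an unnamed gene model, −1.80 and 0.95 for Cspg5, a proteoglycan of astrocytes, and −2.75 and 1.6 for Klhdc7a. It was −1.45 and 0.89 for Ccdc13, and 1.40 and −0.80 for Phf8, a histone demethylase. The fitted values for Podxl, an endothelial sialomucin, were 3.14 and −0.10, but Podxl had no count in either striatum library of the second cohort and 23 and 10 counts in midbrain, whose mean was only 1.13 times that of 3 counts per striatum library. Its fitted change therefore depends on the prior count and is no bound, and its direction in the second cohort is not established. Gm7461 had 5 and 0 counts in striatum, and Klhdc7a 6 and 4 in midbrain and 28 and 2 in striatum. The difference between the cohorts was tested with limma as an interaction, with unadjusted p between 0.000266 (Cspg5) and 0.00433 (Phf8) and an adjusted p of 0.86 for all 6, so none passed. Cspg5 was the only gene called in both cohorts in opposite directions. Groups of 2 libraries were too small for a test of single outlying libraries.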

How the results depend on the processing

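The 468 calls of the second cohort became 204 when every library had to hold 10 counts and 277 after thinning to the smallest library, where fewer genes or counts enter by construction, and 48 passed the stricter adjusted threshold. Adding the 2 libraries of unclear region by title gave 132 calls, 48 of them shared with the original and none at an adjusted p under 0.05, and adding them by file label gave 692, 321 shared. The cause was not tested. Counts stayed within 1.5-fold with the edgeR quasi-likelihood test (538), DESeq2 (444), library size scaling (468), no filter (458) and quality weights (489), and no called gene changed sign in these 5. In the same 5, genes with an adjusted p under 0.05 ranged more widely, from 17 without a filter, which moved the median of all genes by −0.15, to 226 with DESeq2. Omission of single libraries gave 393 (without striatum replicate 3) to 1240 calls (without midbrain replicate 3), and 798 without striatum replicate 1, and the adjusted threshold was passed by 3 (without striatum replicate 3) to 885 genes (without midbrain replicate 3). The lone library left in a region was assumed to vary like the other 2.

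Over the gene lists, 136 genes were called, against 73 with at least 10 counts in every library, 19 with the unclear libraries added by title, and 95 to 252 with single libraries left out (252 without midbrain replicate 3). Among lists with a called gene, the median change turned negative for chemokine receptors (−0.081) and dendritic cells (−0.18) with at least 10 counts, for the interleukin-1 system (−0.12) and dendritic cells (−0.21) after thinning, and for dendritic cells without midbrain replicate 1 (−0.18) or 3 (−0.15), in a range of −0.18 to 1.59 (without striatum replicate 1). It also turned for fibroblasts with the unclear libraries added by title (−0.099) or without midbrain replicate 1 (−0.32), and for astrocytes from −0.92 to 0.15 without striatum replicate 1. Medians of lists without a called gene turned as well, among them Toll-like receptors (0.17, and −0.24 without striatum replicate 1) and B cells (0.24, and −0.23 with at least 10 counts or −0.32 after thinning). Ttr, a transcript of choroid plexus that was not called, changed by −1.52 without midbrain replicate 1 and by 2.47 without midbrain replicate 3. Pilot calls, 395, ranged from 108 without midbrain replicate 1 to 2445 without striatum replicate 1, and were 196 without midbrain replicate 2 and 610 without striatum replicate 2. The difference between cohorts ranged from 0 to 7 genes with single libraries left out, the 7 without striatum pilot replicate 1.

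Same-numbered libraries of the second cohort share a title number but no stated animal. The control numbers in the file labels do not match these title numbers, so the pairs may not join libraries of the same mouse. Deviations of the same-numbered libraries from the region means correlated at 0.0834 over 2 pairs. Neither this value nor the block below tests a pairing by animal. A replicate block in the fit gave 988 calls in place of 468, 465 of them shared, 605 passed the adjusted threshold, and 235 list genes were called in place of 136. The depth of striatum replicate 3 limits genes under about 5.05 CPM there.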

Other observations

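The 2 libraries whose title and file label disagree on the region held 1584013 counts (titled Mdb 2) and 5194739 counts (titled Str 2). Their summed CPM over the class II list were 943 and 5243, over the border macrophage list 629 and 2465, and over the homeostatic list 80077 and 56113. H2-Eb1 was at 88.7 and 826 CPM and Pf4 at 93.5 and 691 CPM. The region of these libraries was not read from their values.

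A few chemokine transcripts that did not pass the filter on low counts were found almost wholly in midbrain replicate 1. Ccl17, a ligand of Ccr4 typical of dendritic cells, had 171 counts there, 1 in midbrain replicate 3 and none in striatum. Ccl22, the other Ccr4 ligand, had 77 counts there, 4 in midbrain replicate 3 and 2 and 0 in striatum. Cxcl3, a neutrophil chemokine, had 99 and 4 counts in midbrain and none in striatum.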
